A study of Homo sapiens with 6 samples.

Results

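The miR-320 family was measured with 5 probes, hsa-miR-320a, hsa-miR-320b, hsa-miR-320c, hsa-miR-320d and hsa-miR-320e, chosen by name from the 2565 miRNA probes of each array. The arrays held RNA from Panc-1, a human cell line grown from a ductal adenocarcinoma of the pancreas. Control cells received 0 ng/mL of TGF-β and treated cells 10 ng/mL, both for 72 h, with 3 arrays in each group and no other agent named in the labels. TGF-β is a secreted cytokine used in the study to start epithelial–mesenchymal transition, and the comparison asked which miRNAs differed after this treatment. The labels do not say whether the 3 RNA samples of a group came from separate cultures, so the p-values measure only the spread between these samples, which may be technical. The control arrays shared 1 slide and the TGF-β arrays a second slide, so slide and treatment cannot be told apart.

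Most miRNAs are cut from a long nuclear transcript by the enzyme Drosha and then trimmed in the cytoplasm by the enzyme Dicer to a duplex, from which the guide strand is loaded onto an Argonaute protein. The precursor of miR-320a is known for skipping the first cut. It is transcribed directly as a short hairpin with a cap at its 5′ end, it still needs Dicer, and it gives almost only the strand from its 3′ side. miR-484 is another miRNA made from such a capped precursor, and mirtrons, which are short introns released by splicing, skip Drosha by a different route. The arrays measured the mature strands and not their processing, so the route taken by each family member was not tested.

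The mature sequences show how closely the members resemble each other, which bears on every comparison of their probes. A sequence from RefSeq (GRCh38.p14) was matched for 4 of the 5 members, miR-320b to miR-320e. In the lines that follow, capitals mark bases 2 to 8, the seed through which a miRNA pairs with most of its targets, and the sequences of miR-4429 and miR-484 stand for comparison.
miR-320b: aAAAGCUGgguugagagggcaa
miR-320c: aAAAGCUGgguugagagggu
miR-320d: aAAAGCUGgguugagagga
miR-320e: aAAGCUGGguugagaagg
miR-4429: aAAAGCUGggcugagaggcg
miR-484: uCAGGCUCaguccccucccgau

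miR-320b, miR-320c and miR-320d had the same seed and the same first 18 bases, and were 22, 20 and 19 bases long. With positions counted from 1 at the 5′ end of miR-320b and the base of miR-320b written first, miR-320c differed by C20U and miR-320d by G19A, besides lacking the last 2 and 3 bases. miR-320e was 18 bases long and began 1 base later, which moved its seed by 1 base along the same letters, and it differed from miR-320b by G17A. All 4 sequences shared an unbroken run of 15 bases. Among 2370 mature sequences in the table, miR-4429 was the only 1 outside the family with a seed of these members, and it differed from miR-320b by U11C, G19C and C20G. No other miRNA with a probe and a sequence in that table shared a run of more than 9 bases with the 4 members. The probe sequences are not given in the files, and how far 1 probe takes up the RNA of another member was not tested.

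The 4 matched members come from 7 genes in the RefSeq annotation of GRCh38.p14. No genome build is named in the array files. The mature sequence of miR-320b lies at chr1:116671787-116671808 on the plus strand (MIR320B1) and at chr1:224257049-224257070 on the minus strand (MIR320B2, inside the interval of the protein-coding gene NVL). miR-320c lies at chr18:21683559-21683578 (MIR320C1, inside ABHD3) and chr18:24321716-24321735 (MIR320C2, inside OSBPL1A), both on the plus strand. miR-320d lies at chr13:40727828-40727846 (MIR320D1) and chrX:140926172-140926190 (MIR320D2), both on the minus strand and inside no other gene. miR-320e lies at chr19:46709294-46709311 on the minus strand (MIR320E, inside PRKD2). The gene table holds no exons, so exon and intron were not separated. In each of these hairpins of 71 to 73 bases the mature strand was on the 3′ side, starting at base 41, 42 or 44. Because miR-320b, miR-320c and miR-320d each have 2 genes with the same mature sequence, their values cannot be assigned to a gene.

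All 5 probes gave signals far above the blank spots on all 6 arrays. Signals were scanner medians on a linear scale, of 51.6 to 144.1 intensity units, while the limits for calling a miRNA detected, set at the mean of the blank spots plus 2 SD, were 19.5 to 22.9 units. The members lay 49.1 to 177 SDs of the blank spots above the blank mean, none of their spots was flagged by the scanner, and they ranked between 190 and 347 from the brightest of the miRNA probes, which is within the brightest 13.5% of an array. Between 1531 and 1787 miRNAs were detected per array. Over the 1282 miRNAs detected on all 6 arrays, pairs of arrays had correlations of 0.984 to 0.992 across miRNAs, which are not independent replicates. Among the miRNAs listed as markers of cell types, those of acinar pancreas were near the blank spots (miR-217 was detected on 0 arrays and miR-216a-5p on 2), miR-375 of endocrine pancreas was detected on 1 array, and miR-7-5p was detected on all 6. Of the epithelial markers, miR-141-3p was detected on 0 arrays, miR-200c-3p on 1, and miR-200a-3p and miR-200b-3p on all 6 at 3.21 to 9.65 units above the blank mean. The 4 blood cell markers summed to 5.21 to 14.004 units on control arrays and 8.21 to 11.2 on TGF-β arrays.

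Levels of the members are given as log2 intensity after subtraction of the blank mean and quantile normalization between arrays. miR-320a, the member whose capped precursor is best known, had levels of 6.70, 6.83 and 6.63 on control arrays 1 to 3 and 6.42, 6.43 and 6.50 on TGF-β arrays 1 to 3. The lowest control array still exceeded the highest TGF-β array, and the TGF-β arrays lay closer together than the control arrays. miR-320b, the longest of the matched sequences, had 6.51, 6.63 and 6.75 in control and 6.35, 6.47 and 6.57 in TGF-β-treated cells. Here the groups overlapped, since control replicate 1 was below TGF-β replicate 3.

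miR-320c, which shares its first 19 bases with miR-320b, had levels of 6.18, 6.21 and 6.03 in control and 5.93, 5.86 and 6.02 in TGF-β-treated cells. The groups did not overlap, but control replicate 3 and TGF-β replicate 3 were almost equal. miR-320d had 6.10, 6.30 and 6.01 in control and 5.94, 5.83 and 6.03 in TGF-β-treated cells, and the same pair of arrays overlapped. miR-320e, the shortest sequence, had 5.51, 5.50 and 5.26 in control and 5.15, 5.11 and 5.20 in TGF-β-treated cells. All of its control arrays were above all of its TGF-β arrays, by a narrow margin for control replicate 3.

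**Figure D1:**
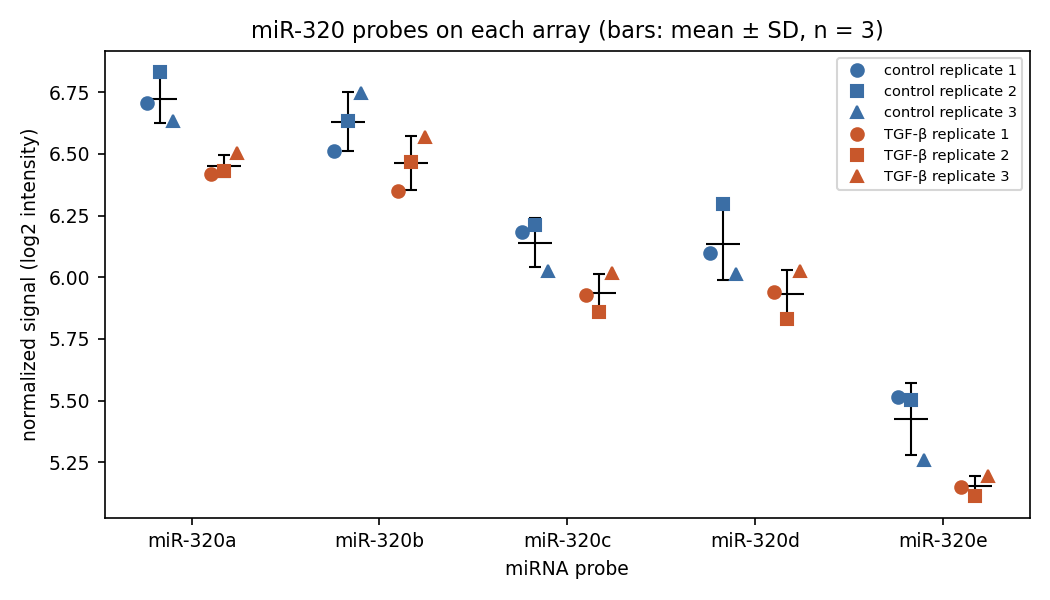
Normalized signal (log2 intensity, vertical axis) of the 5 miR-320 probes on each control and TGF-β array, with black bars for the mean and SD of 3 arrays. The control means ran from 5.43 for miR-320e to 6.72 for miR-320a, and the group means of TGF-β-treated cells lay below the control means for all 5 probes.

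The members also shared part of their order of arrays within a group. TGF-β replicate 3 was the highest TGF-β array for all 5 members. The lowest was TGF-β replicate 2 for miR-320c, miR-320d and miR-320e and replicate 1 for miR-320a and miR-320b. This order depended on the scaling, since TGF-β replicate 2 was the highest for all 5 in the values the authors deposited. The highest control array was replicate 2 for miR-320a, miR-320c and miR-320d, and replicate 1 for miR-320e. Control replicate 3 was the lowest control array for 4 members, miR-320b excepted, for which it was the highest. miR-320b therefore went apart from its relatives on that array. As a description of whole profiles, each profile over the 6 arrays was centred on its own mean. This keeps the difference between the groups, so nearness does not show the order within a group alone. The root mean square difference from the mean profile of miR-320a to miR-320d was then taken. miR-320e, which did not enter that mean, differed from it by 0.078 on the log2 scale, and 25 of 1277 miRNAs detected on all arrays differed by less. The median difference of these 1277 miRNAs was 0.220. This measure also grows with the spread of a probe between arrays, and the miRNAs were not matched for signal or spread. The median standard error of the log2 fold change was 0.095 for the members and 0.176 for all 1457 tested miRNAs. miR-320b differed by 0.096 although it is part of the mean, while miR-320a (0.039), miR-320c (0.043) and miR-320d (0.051) were nearer. miR-484, which is no family member, differed by 0.094, slightly less than miR-320b, and 72 of the miRNAs were nearer than it. miR-4429 differed by 0.116, with 129 nearer. The nearest profiles outside the family were those of miR-4274 (0.032), miR-425-5p (0.043), miR-196b-5p (0.043), miR-378e (0.048) and let-7f-5p (0.050). This is a measure over 6 arrays that share 2 slides, and it carries no test.

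A comparison of the members with each other is a comparison of probe signals and not of RNA amounts, because hybridization differs between probes. In the order of mean log2 levels over the 6 arrays, miR-320a (6.59) and miR-320b (6.55) stood at the top, miR-320c (6.04) and miR-320d (6.03) in the middle and miR-320e (5.29) at the bottom. miR-320a and miR-320b could not be ordered. The difference of their log2 levels within an array was between -0.11 and 0.20, with miR-320a higher on 3 of 6 arrays. miR-320c and miR-320d could not be ordered either, with differences of -0.085 to 0.083 and miR-320c higher on 3 of 6 arrays. The steps between these pairs were larger than the spread between arrays. miR-320b was above miR-320c on 6 of 6 arrays by 0.33 to 0.72, and miR-320d was above miR-320e on 6 of 6 arrays by 0.58 to 0.83.

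**Figure D2:**
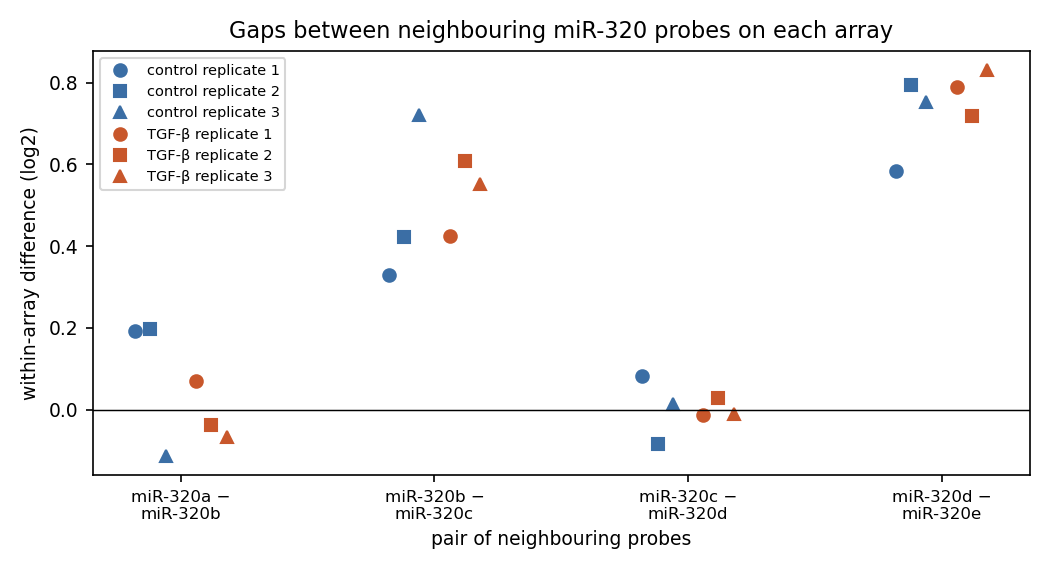
Difference in log2 signal between neighbouring miR-320 probes (vertical axis) on each of the 6 arrays, with the horizontal line at equal signals. The differences of miR-320a to miR-320b and of miR-320c to miR-320d lie on both sides of the line, while those of miR-320b to miR-320c (0.33 to 0.72) and of miR-320d to miR-320e (0.58 to 0.83) are above it on every array.

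Among the 4 matched members, the longest sequence had the highest signal and the shortest the lowest, over lengths from 22 bases for miR-320b to 18 for miR-320e. miR-4429, with 20 bases, did not take a place between them. Its mean log2 levels were 5.17 in control and 5.01 in TGF-β-treated cells, each below the mean of miR-320e in the same group. The part of length in the signals was not tested.

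After treatment with TGF-β, all 5 members had a negative log2 fold change, and none passed the adjusted threshold of 0.05. The fold changes are differences of mean log2 levels, TGF-β minus control, from a limma fit over the 1457 detected miRNAs, with Benjamini-Hochberg adjustment over all of them. In that fit 58 miRNAs (3.98%) were called, 20 of them lower (1.37%) and 38 higher (2.61%) after TGF-β. The split depended on the scaling, with 4 lower and 27 higher in the deposited values and 8 lower and 27 higher without normalization between arrays. The median log2 fold change was -0.21 for the 5 members and -0.013 for all 1457 miRNAs, of which 765 (52.5%) were below 0. An unadjusted p under 0.05 was obtained for 3 of the 5 members with limma, compared with 202 (13.9%) of all miRNAs, and for 3 with the methods' t-test, compared with 194 (13.3%). Adjustment left 0 members by either test. The unadjusted count from limma varied with the setting. It was 0 with the deposited values, without normalization between arrays and with the local background. It was 1 with median scaling, 2 with the replicate block and 4 without control replicate 3.

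For miR-320a the mean log2 level was 6.72 ± 0.10 (SD, n = 3) in control and 6.45 ± 0.045 (SD, n = 3) after TGF-β. The log2 fold change was -0.27 (standard error 0.085, 95% interval -0.46 to -0.085, adjusted p = 0.142 from limma), a ratio of 0.828. miR-320e had a log2 fold change of the same size, -0.27 (standard error 0.10, 95% interval -0.50 to -0.040, adjusted p = 0.256 from limma), at a lower signal of 5.43 ± 0.14 (SD, n = 3) in control and 5.15 ± 0.042 (SD, n = 3) after TGF-β. These were the members with the groups farthest apart.

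For miR-320c the mean log2 level was 6.14 ± 0.10 (SD, n = 3) in control and 5.93 ± 0.079 (SD, n = 3) after TGF-β, a log2 fold change of -0.21 (95% interval -0.41 to -0.00034, adjusted p = 0.358 from limma). miR-320d gave nearly the same values, 6.14 ± 0.15 (SD, n = 3) on control arrays and 5.93 ± 0.099 (SD, n = 3) on TGF-β arrays, with a log2 fold change of -0.20 (95% interval -0.43 to 0.023, adjusted p = 0.432 from limma). miR-320b had the smallest difference, from 6.63 ± 0.12 (SD, n = 3) to 6.46 ± 0.11 (SD, n = 3), with a log2 fold change of -0.17 (95% interval -0.38 to 0.042, adjusted p = 0.483 from limma). The intervals of all 5 members reached from a reduction of at least 0.38 on the log2 scale to values between -0.085 and 0.042. Those of miR-320b and miR-320d included 0.

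**Figure D3:**
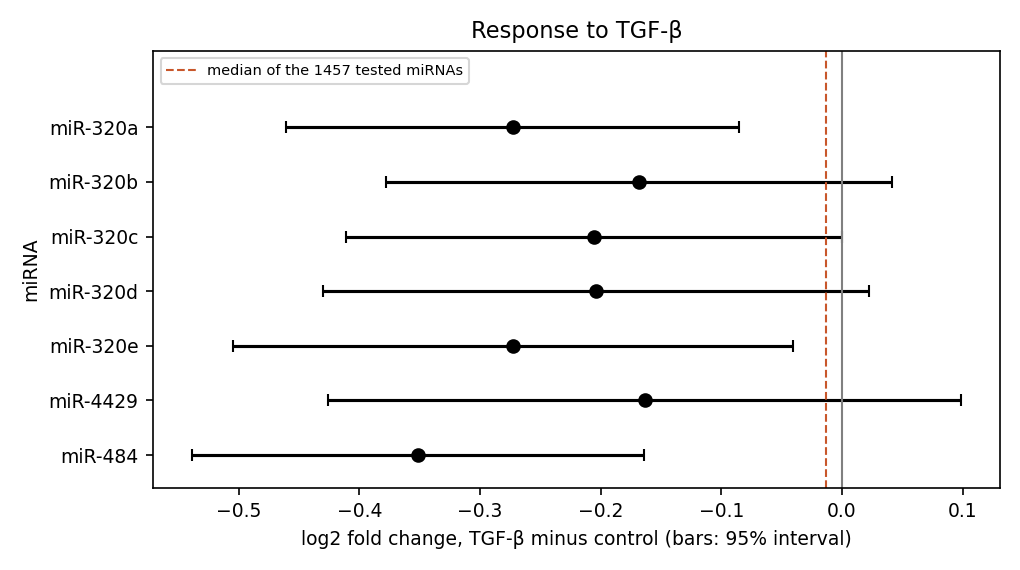
Log2 fold change of TGF-β minus control (points, horizontal axis) with 95% intervals from limma for the 5 miR-320 members, miR-4429 and miR-484, with 3 arrays per group. The points lie between -0.35 (miR-484) and -0.16 (miR-4429), left of the dashed line at the median of all tested miRNAs (-0.013).

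Groups did not overlap for 3 of the 5 members, miR-320a, miR-320c and miR-320e, always with control higher. The exact permutation test over the 6 arrays gave each of these p = 0.1 (2-sided), the smallest that 3 arrays against 3 allow, and p = 0.2 for miR-320b and miR-320d. Among all 1457 miRNAs, 18.9% had groups that did not overlap, and 10.1% had them with control higher. The 4 members with a sequence share a run of 15 bases, and the probes cannot be counted as separate observations.

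**Figure D4:**
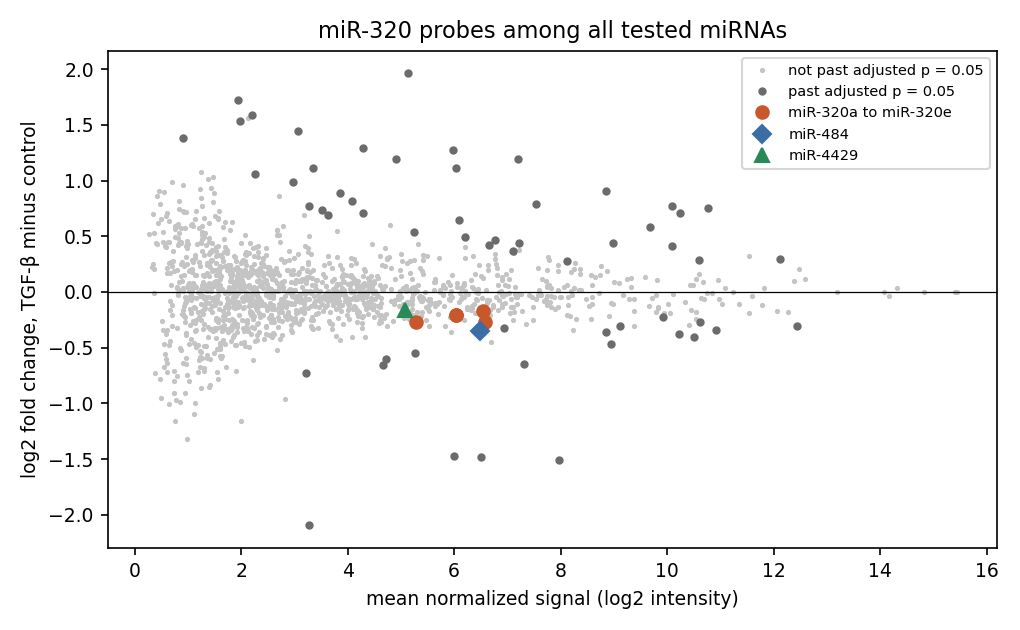
Log2 fold change of TGF-β minus control against the mean normalized signal (log2 intensity) for the 1457 tested miRNAs, with the 58 past the adjusted threshold in dark grey. The 5 miR-320 members (orange) lie below 0, from -0.27 to -0.17, among many miRNAs of like signal that were not called, and miR-484 (blue) lies just below them at -0.35.

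Whether the members differed from each other in their response could be judged only from the size of the differences and their intervals. For each of the 10 pairs of members, the difference of their log2 levels within an array was compared between the groups. The exact permutation test (2-sided) gave p between 0.2 and 1, and between 0.667 and 1 after Benjamini-Hochberg adjustment over the 10 pairs, but with 3 arrays against 3 it cannot go below 0.1 and so could not have passed 0.05 for any pair. The response of miR-320a minus that of miR-320b was -0.10 (95% interval of a linear model over the arrays, -0.41 to 0.20), and that of miR-320b minus miR-320e was 0.10 (-0.33 to 0.54). The narrowest intervals were those of miR-320c minus miR-320e, 0.067 (-0.034 to 0.17), and of miR-320a minus miR-320c, -0.067 (-0.18 to 0.047). The size of these differences depended on single arrays. Over 17 alternatives miR-320a minus miR-320b was below 0 in 17 and miR-320b minus miR-320e above 0 in 17. Without control replicate 3 that of miR-320a minus miR-320b was -0.22, and without control replicate 1 (-0.048) or 2 (-0.050) it was nearer to 0. That of miR-320b minus miR-320e was 0.24 without control replicate 3, 0.068 without control replicate 2 and 8.3e-06 without control replicate 1. With 1 array left out, miR-320c minus miR-320e stayed between 0.046 and 0.081 and miR-320a minus miR-320c between -0.094 and -0.048. With the local background, normexp and an offset of 50, described next, miR-320c minus miR-320e turned to -0.10 and miR-320a minus miR-320c to 0.048. Differences of up to 0.54 on the log2 scale thus remained within the intervals of the reported setting, and the wide ones belonged to pairs with miR-320b. These intervals do not cover the choice of background. With the local background, normexp and no offset, miR-320d minus miR-320e was -0.54, miR-320a minus miR-320d 0.41 and miR-320b minus miR-320d 0.56, each outside its interval. Under that setting miR-320a minus miR-320b (-0.16) and miR-320b minus miR-320e (0.025) stayed within theirs.

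Both the background and the scaling of the arrays bore on these values. The scanner's local background of the members' own spots was 0.399 to 1.03 times their signal, and on 3 of the 30 member spots it was above the signal. Using it in place of the blank mean, with limma's normexp method and an offset of 50 units added before the logarithm, gave log2 fold changes of -0.011 for miR-320a, 0.083 for miR-320b, -0.059 for miR-320c, -0.18 for miR-320d and 0.041 for miR-320e, so the sign turned for miR-320b and miR-320e. The gap between the highest and the lowest member then went from 1.30 to 0.16 on the log2 scale, with the mean level of miR-320c (6.54) above that of miR-320a (6.50). An added offset narrows log2 differences by its construction, so the offset and the background were also changed separately. The local background with normexp and no offset gave 0.15 for miR-320b, 0.12 for miR-320e, -0.0076 for miR-320a, -0.10 for miR-320c and -0.41 for miR-320d, with a gap of 0.37. With the offset of 50 added to the blank-subtracted values, all 5 members stayed below 0, from -0.18 for miR-320a to -0.11 for miR-320b, and the gap was 0.71.

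In the processed values that the authors deposited, which are linear and scaled to a median of 25 per array, miR-320a had 384, 454 and 387 in control and 318, 445 and 373 in TGF-β-treated cells. TGF-β replicate 2 was the highest TGF-β array for all 5 members on this scale, and the groups overlapped for each of them. The mean of the TGF-β arrays divided by that of the control arrays was 0.927 for miR-320a, 0.979 for miR-320b, 0.951 for miR-320c, 0.966 for miR-320d and 0.917 for miR-320e. On that scale the median log2 fold change of all tested miRNAs was 0.11, and relative to it the members lay between -0.24 and -0.15.

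**Figure D5:**
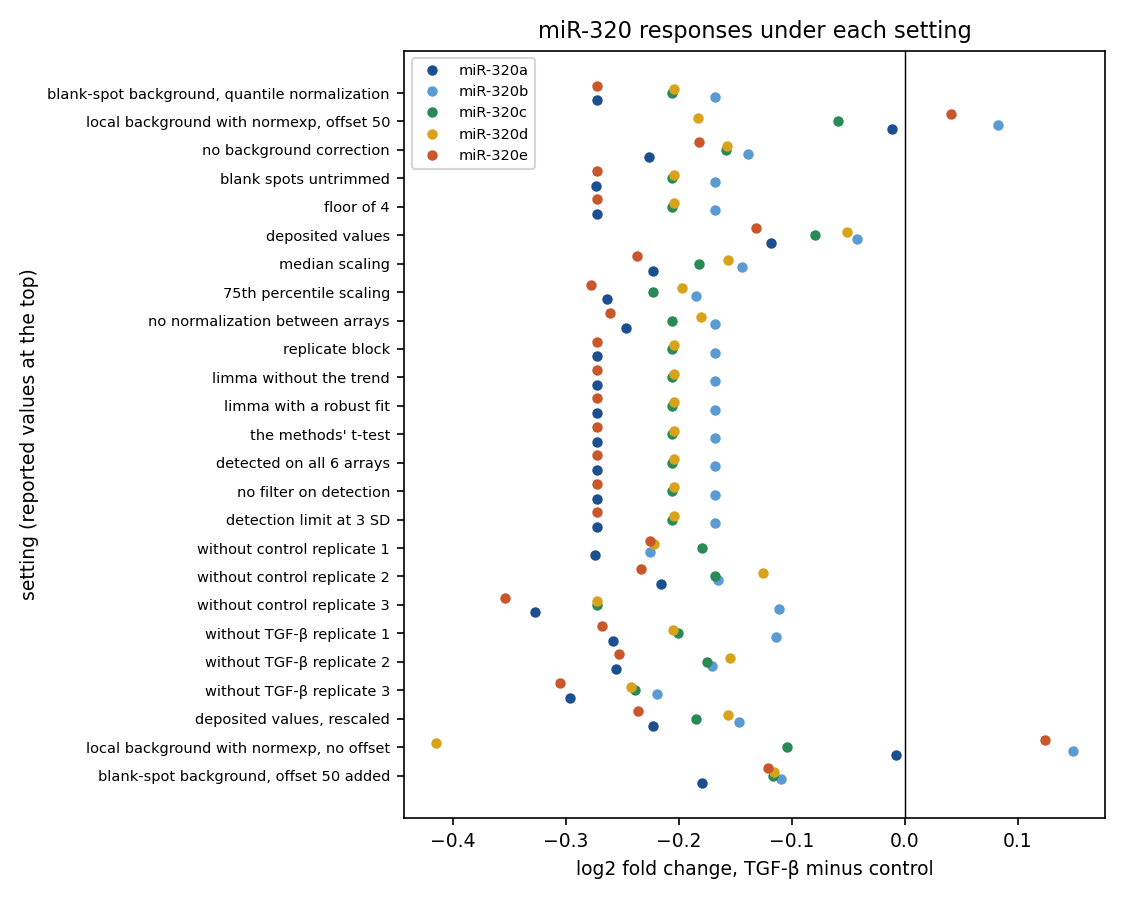
Log2 fold change of TGF-β minus control (horizontal axis) of each miR-320 member under the reported setting (top) and 24 alternatives, with 1 point per member. In 8 alternatives the values equal the reported ones because only the model, the test, the filter or the floor changed, and among the 80 values of the other 16 the 4 right of 0 are those of miR-320b and miR-320e with the local background, at offset 50 (0.083 and 0.041) and with no offset (0.15 and 0.12).

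Other miRNAs made without Drosha were set beside the family. miR-484, which also has a capped precursor, had levels of 6.56, 6.70 and 6.73 in control and 6.26, 6.31 and 6.36 in TGF-β-treated cells. Its groups did not overlap and its TGF-β arrays lay within 0.10 of each other. The log2 fold change of miR-484 was -0.35 (standard error 0.085, 95% interval -0.54 to -0.16, adjusted p = 0.0463 from limma), a ratio of 0.784. The call was close to the threshold and was made in 6 of the 24 alternatives, over which the adjusted p from limma or the methods' t-test ranged from 0.0303 to 0.993. Leaving out control replicate 2 (adjusted p = 0.210), control replicate 3 (0.137), TGF-β replicate 1 (0.163), replicate 2 (0.146) or replicate 3 (0.0872) ended it in limma. In the deposited values miR-484 had 347, 427 and 409 in control and 289, 417 and 340 in TGF-β-treated cells, and the groups overlapped. There the log2 fold change was -0.19 (adjusted p = 0.900 from limma). The log2 fold change of miR-484 was 0.031 with the local background, normexp and an offset of 50, 0.13 without that offset, and -0.23 with the offset on blank-subtracted values. Whether miR-484 and the miR-320 members differ in their response was not tested.

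The mirtrons were compared next. Of the 14 listed arms, from miR-877, miR-1224, miR-1226, miR-1229, miR-1236, miR-1237 and miR-1238, all had a probe, 13 were tested and 12 were detected on all 6 arrays. Limma called 0 of the 13, beside 3.98% of all miRNAs, and 0 had an unadjusted p under 0.05 in limma or in the methods' t-test, beside 13.9% and 13.3% of all. With shares this low among all miRNAs, counts of 0 in 13 arms say nothing particular about the mirtrons. Their log2 fold changes lay between -0.42 and 0.16 with a median of -0.031, and 8 of the 13 were below 0. miR-877-5p, an arm of a mirtron, had levels of 3.27, 3.26 and 3.24 in control and 3.22, 2.80 and 3.01 in TGF-β-treated cells (log2 fold change -0.25, adjusted p = 0.520 from limma). The other arm, miR-877-3p, had a log2 fold change of 0.027 (adjusted p = 0.983 from limma). Most of these arms were much dimmer than the miR-320 members, whose lowest level was 5.11. miR-1237-5p was the exception, with mean levels of 6.84 in control and 6.94 in TGF-β-treated cells.

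miR-4429, which carries the seed of miR-320b, miR-320c and miR-320d, had levels of 5.34, 5.21 and 4.95 in control and 5.03, 4.93 and 5.05 in TGF-β-treated cells. The groups overlapped, and the log2 fold change was -0.16 (95% interval -0.43 to 0.099, adjusted p = 0.615 from limma). It was -0.078 without control replicate 1 and -0.27 without control replicate 3. As in every member except miR-320b, control replicate 3 was the lowest control array. miR-451a, which needs Drosha but not Dicer and is abundant in red blood cells, was detected on 5 of 6 arrays at 3.85 units or less above the blank mean, too near the detection limit for a comparison with the miR-320 members.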

How the data were processed

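Total RNA was labelled with Cy5 and hybridized to 3D-Gene miRNA arrays read in 1 colour. The authors deposited, for each of 3200 spots, the median intensity read by the scanner and its local background, linear and not normalized, and a table of processed intensities, whose method is not given in the sources used here. These deposited values were rebuilt exactly on all 6 arrays as the signal minus the trimmed mean of the 320 blank spots (5% left out at each end), scaled to a median of 25 over detected miRNAs, and empty where the signal was not above the blank mean plus 2 SD.

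The same blank mean was subtracted here (floor 1), followed by log2, quantile normalization over the miRNA probes, and limma's lmFit and eBayes with trend (R 4.3.3, limma 3.58.1, figures with matplotlib 3.10.9 in Python 3.11.15). It was preferred over the local background, which went with the signal of the same spot (Spearman's rho 0.795 to 0.874 per array over 2565 miRNA spots, as a description) and had medians of 101.7 to 196 units around the 256 brightest spots and 12.1 to 17.1 around blank spots. Tests covered the 1457 miRNAs whose signal passed this limit on all arrays of a group, and 3 flagged miRNA spots were set as missing. Fold changes are differences of mean log2 values. The number of arrays limits the precision. The procedure was tested on simulated data. Members, lists and tests were chosen with earlier results of these data known. Named besides the members were miRNAs with a member's seed, miRNAs made without Drosha with miR-451a as contrast, cell type markers, and the 5 nearest profiles. Alternatives covered background, offset, floor, normalization, detection, variance model, test, replicate block and each array left out.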

Additional observations from a re-analysis of the deposited data

How the results depend on the processing

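None of the 5 members was called under any of the 24 alternatives. Of these, 3 were chosen after seeing the data: the deposited values rescaled on miRNAs with a value on all 6 arrays, the local background with normexp and no offset, and the offset of 50 added to blank-subtracted values. The local background with normexp gave log2 fold changes against the reported sign, of 0.083 for miR-320b, 0.041 for miR-320e, 0.039 for miR-4429 and 0.031 for miR-484 at an offset of 50, and of 0.15, 0.12, 0.10 and 0.13 with no offset, and miR-4429 was at 0.00020 in the deposited values. The gap between the highest and lowest member level was 0.16 with the local background at an offset of 50, 0.37 with no offset, 0.71 with blank-spot background and the offset, and 0.98 with no background correction. Under the 22 alternatives without the local background the members' log2 fold changes lay between -0.35 and -0.042. Leaving out each array in turn gave -0.33 to -0.22 for miR-320a, -0.23 to -0.11 for miR-320b, -0.27 to -0.17 for miR-320c, -0.27 to -0.13 for miR-320d, -0.35 to -0.23 for miR-320e and -0.27 to -0.078 for miR-4429.

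Over all miRNAs, 58 were called (20 lower, 38 higher), compared with 0 with the local background at either offset, 52 with blank-spot background and the offset of 50 (17 lower), 33 with a floor of 4 (9 lower), 31 with the deposited values (4 lower), 35 without normalization between arrays (8 lower), 32 without the trend (9 lower), 17 with the methods' t-test (5 lower), 19 without a filter on detection (5 lower) and 25 to 51 with 1 array left out. The lower calls were then 19, 7 and 17 without control replicates 1, 2 and 3, and 12, 8 and 11 without TGF-β replicates 1, 2 and 3. Median scaling called 12 lower of 49. The labels do not say whether equal replicate numbers pair a control array with a TGF-β array. Arrays with the same number had deviations from the group mean that correlated by 0.13, 0.11 and -0.027 across miRNAs. With 3 arrays per group and no such correlation taken for arrays of different number, these values cannot decide it. With the replicate block 60 miRNAs and 0 members were called, the log2 fold change of miR-320a was -0.27 (adjusted p = 0.176 from limma), and miR-484 was no longer called (adjusted p = 0.0561). The cause of these shifts was not tested. Levels of different probes depend on the background subtracted, and signals of the mirtrons close to the blank spots limit what can be said of them.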
